A study of Drosophila melanogaster with 9 samples.

Results

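Cytochrome P450 genes were followed on 9 Affymetrix expression arrays of cells sorted from the fly larval body wall. The symbols of the platform annotation that start with Cyp and a digit belonged to 83 of 11982 named genes. Of these, Cyp1 and Cyp40 encode cyclophilins, which are peptidyl-prolyl isomerases and not P450 enzymes, so 81 genes are described as P450 genes. Where a gene had several probe sets, the one brightest on average stands for it, and only 2 genes, Cyp12e1 and Cyp18a1, had more than 1 probe set of their own. No probe set stood for Cyp12d1-p or Cyp9f3 alone.

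All samples were mCD8:GFP-positive cells of wandering larvae of the last instar, each pooled from 80 body walls, and all animals carried GAL4[21-7] with UAS-mCD8:GFP. The labels describe this driver as active in every class of dendritic arborization (da) neuron, the sensory neurons of the body wall. In Control animals this driver and marker chromosome stood over a wild-type one (+). Ab ME animals were the same with UAS-abL/+ added on another chromosome, which drives Abrupt, and in Kn ME animals UAS-knL:HA, which drives Knot with an HA tag, took the place of the +. Both are transcription factors that shape da neuron dendrites, and the 3 groups held 3 biological replicates each. The question addressed here is how P450 transcripts changed with each misexpressed factor.

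P450 enzymes are haem-containing monooxygenases that insert an oxygen atom into small lipophilic molecules. In insects they make and break down hormones, build cuticular hydrocarbons and metabolise plant toxins and insecticides. Most sit in the endoplasmic reticulum and take electrons from P450 reductase, while the mitochondrial clan takes them from ferredoxin. Insect P450 genes fall into the CYP2, CYP3, CYP4 and mitochondrial clans, and many lie beside close relatives produced by tandem duplication. The number in a symbol names the family and the letter after it the subfamily. Fat body, midgut, Malpighian tubule and oenocytes are known for high expression of many of them.

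Markers of several cell types were present in the sorted material and differed between groups. Over 9 measured of 10 neuronal markers the average log2 level was 5.10 to 5.63 on Control arrays, 2.67 to 2.92 on Ab ME arrays and 3.65 to 3.71 on Kn ME arrays. It was 7.59 to 8.87, 10.52 to 10.70 and 10.07 to 10.17 for 10 hemocyte (blood cell) markers, all 10 of which rose in Ab ME and 7 in Kn ME. No hemocyte marker averaged below 1.54, the median of all values, in any group, and neuronal markers did so in Ab ME (3) and Kn ME (2). All 7 measured midgut markers lay below that median in every group, as did 4 of 5 Malpighian tubule markers in Control and Ab ME and all 5 in Kn ME. The 5 measured fat body markers averaged 3.18 to 4.08 on Control arrays, 1.84 to 2.28 on Ab ME arrays and 2.52 to 3.13 on Kn ME arrays. They were mixed in Ab ME, where Fbp1 (-2.36) and Fbp2 (-3.32) fell, Apoltp (0.70) rose and Lsp2 and apolpp did not pass. None of them passed in Kn ME. Epidermal markers averaged between 4.37 and 4.90 on Control arrays, 2.99 and 3.15 with Abrupt, and 3.63 and 3.83 with Knot, with 3 of 8 genes lower in each group. Of the muscle, glia and tracheal markers measured (5, 5 and 4), 3 each fell in Ab ME, and 0, 2 and 2 fell in Kn ME. The 3 crystal cell markers averaged 1.67 to 5.58 on Control arrays, 7.95 to 8.21 on Ab ME arrays and 6.89 to 7.68 on Kn ME arrays. All 3 rose in Ab ME, and 1, lz, rose in Kn ME (3.78). PPO1 (4.33) and PPO2 (4.09) did not pass in Kn ME, and their Control values were spread widely, with replicate 1 highest. The 5 ring gland markers had no call with limma in either group. In bulk samples, fewer cells of a type and less RNA per cell cannot be told apart, and the part of cell composition in the P450 results was not tested.

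Most P450 genes gave low signal. Of the 81, 45 averaged below the median of all values in all 3 groups, among them all 5 Cyp313a genes, the DDT-resistance gene Cyp6g1 and Cyp303a1, known for a role in sensory bristle development. Above a mean of 5 log2 units lay 7 genes by their Control mean, 9 by their Ab ME mean and 11 by their Kn ME mean. The highest Control means were those of Cyp4p2 (9.21), Cyp4e2 (6.42), Cyp4p1 (6.21), Cyp9c1 (6.10), Cyp4g1 (6.09) and Cyp9f2 (5.19), each the level of its own probe set. These levels do not rank the genes, because probe sets differ in affinity.

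**Figure D1:**
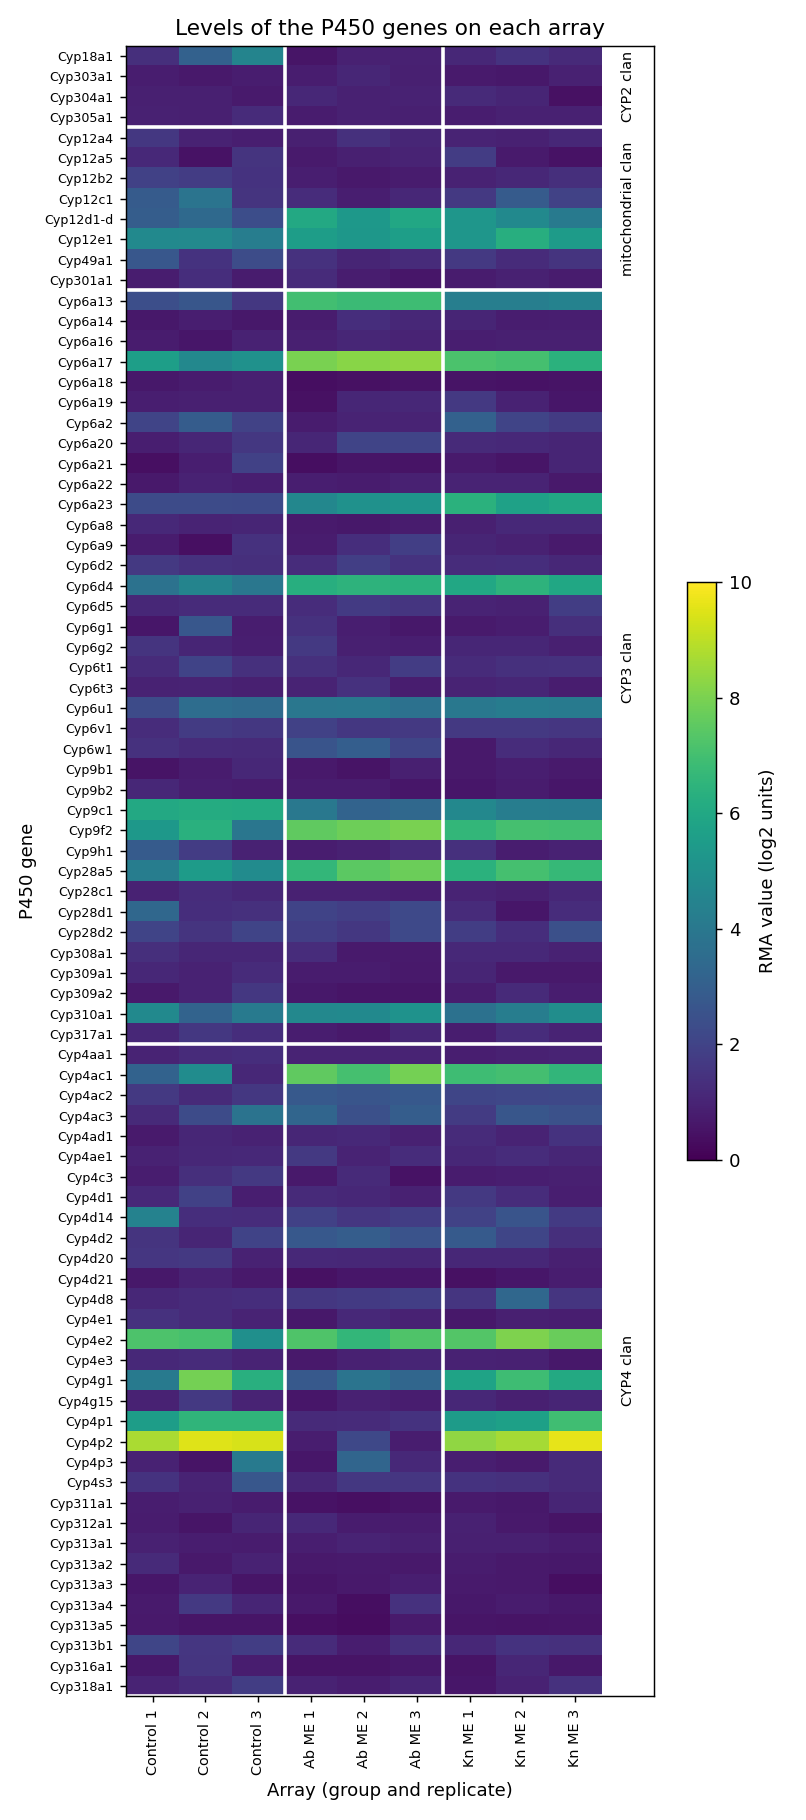
RMA values (log2 units, colour) of the 81 P450 genes on the 9 arrays, grouped by clan, with 1 column per array. Most rows are dark in every group, Cyp4p2 and Cyp4p1 are dark on the 3 Ab ME arrays only, and Cyp6a13, Cyp6a17, Cyp6a23 and Cyp4ac1 are brighter on Ab ME and Kn ME arrays than on Control arrays.

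In Ab ME 10 of the 81 P450 genes rose and 5 fell against Control, and in Kn ME 7 rose and 1 fell (limma adjusted p under 0.05 over all probe sets). The rises in Ab ME made up 12.3% of the members, against a background of 11.2% of all named genes, and the falls 6.17% against 5.96%, so the number of calls in Ab ME was close to that of genes in general. In Kn ME the rises were 8.64% of the members against 4.18% of named genes, and the falls 1.23% against 2.32%. The 7 rises in Kn ME became 3 without Kn ME replicate 1 or without replicate 2, and also in a fit of only the 6 arrays compared. Over all probe sets the rises in Kn ME went from 626 to 259, 215 and 195 in these fits. The median difference over the 81 genes was -0.11 log2 units in Ab ME and -0.12 in Kn ME, beside -0.01 and 0.00 over all named genes. These medians are not matched for brightness, and 45 of the 81 genes were dim in all groups. Over all probe sets the median difference was -0.06 in Ab ME and -0.03 in Kn ME. Over probe sets averaging above the median of all values it was 0.38 and 0.20. The 66 P450 genes with no call in any comparison had differences from -2.77 to 1.24 in Ab ME and from -1.74 to 1.27 in Kn ME. Control did not overlap with Ab ME in 35 of the 81 genes (43.2%, beside 38.5% of named genes) or with Kn ME in 22 (27.2%, beside 24%). Both comparisons use the same Control arrays and are therefore given side by side.

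**Figure D2:**
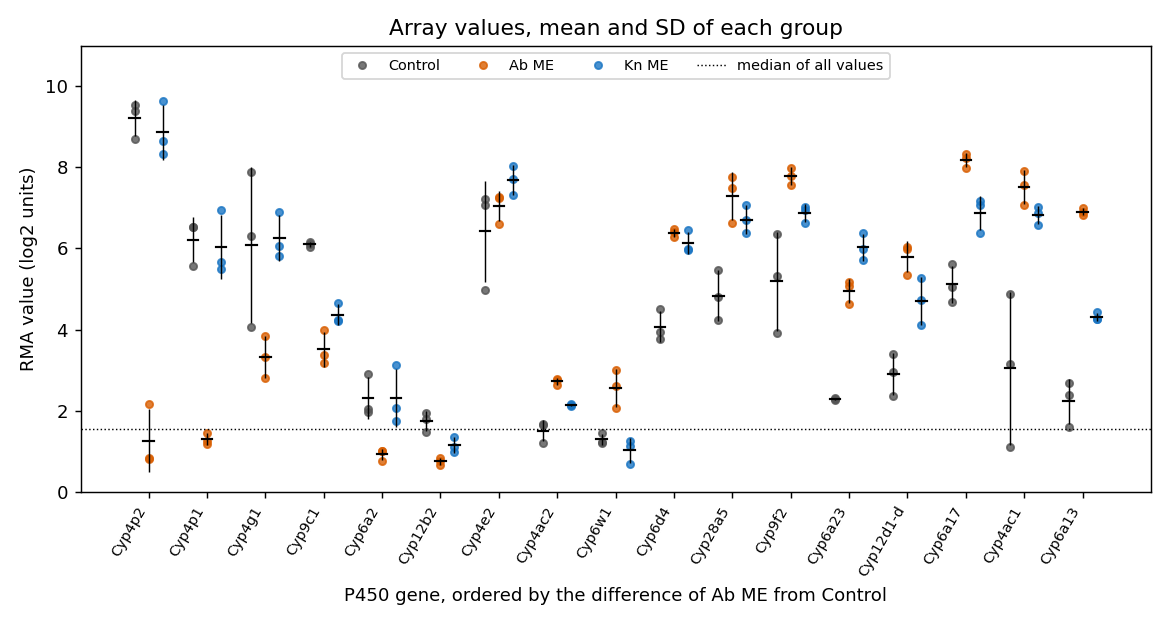
RMA values (log2 units) of the 17 P450 genes that passed the threshold in a comparison or were among the 6 brightest in Control. Points are arrays, horizontal bars are means, vertical lines are SD (n = 3 per group), and the dotted line is the median of all values, 1.54. The Ab ME arrays of Cyp4p2 and Cyp4p1 lie near or below that line, apart from 1 array of Cyp4p2 at 2.15.

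The largest difference among the P450 genes was the fall of Cyp4p2 in Ab ME. Its Control values were 8.71, 9.53 and 9.40, its Ab ME values 0.82, 2.15 and 0.80, and its Kn ME values 8.34, 8.65 and 9.63. Signal was thus high on every Control and Kn ME array and close to or below the median of all values on the Ab ME arrays. The log2 difference was -7.96 in Ab ME (SE 0.46, limma adjusted p = 7.74e-05) and -0.34 in Kn ME (adjusted p = 0.73). Because the Ab ME values are near background, the size of the fall is uncertain.

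Cyp4p1, the next gene in the gene order of Release 6, had the same pattern. It measured 5.57, 6.53 and 6.53 on the Control arrays, 1.18, 1.24 and 1.45 on the Ab ME arrays and 5.49, 5.68 and 6.94 on the Kn ME arrays. Control and Kn ME overlapped, and all Ab ME arrays lay below both. The difference was -4.92 in Ab ME (SE 0.40, adjusted p = 0.000279) and -0.17 in Kn ME (adjusted p = 0.853). Between Kn ME and Ab ME both genes passed, at 7.62 for Cyp4p2 (adjusted p = 0.00089) and 4.75 for Cyp4p1 (adjusted p = 0.00484). Both falls and both of these differences passed under all 16 alternatives. The arrays measured RNA alone, and whether the probed stretches of these adjacent genes are intact in the Ab ME animals was not tested.

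The third gene of that subfamily, Cyp4p3, lies beside Cyp4p1 and was low with single high arrays. It read 0.96, 0.54 and 4.10 on the Control arrays, 0.61, 3.25 and 1.14 on the Ab ME arrays and 0.84, 0.71 and 1.18 on the Kn ME arrays. Neither difference from Control passed (-0.20, adjusted p = 0.909, and -0.96, adjusted p = 0.633). Of the 10 protein-coding genes that flank the trio, 5 on each side, 9 were measured. Their Ab ME differences ranged from -0.52 to 1.11, and only CG2063 passed, with a rise of 0.93 (adjusted p = 0.027); it also rose in Kn ME (0.99, adjusted p = 0.0409).

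**Figure D3:**
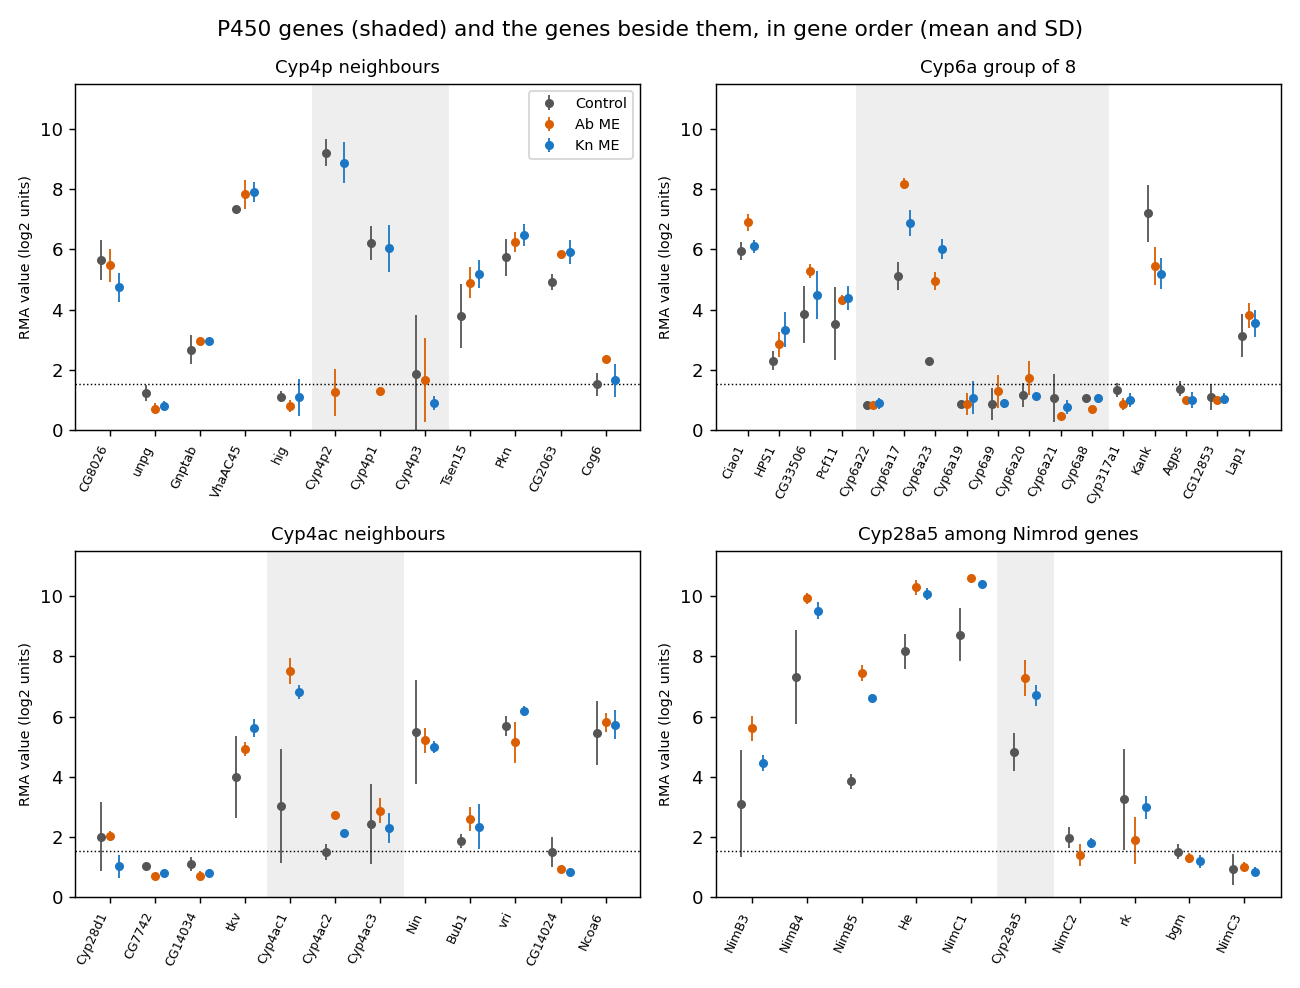
Group means with SD (n = 3, RMA values in log2 units) of P450 genes (grey background) and of up to 5 protein-coding genes on either side, in gene order; genes without a probe set of their own are left out, and the dotted line is the median of all values. Cyp4p2 and Cyp4p1 are high in Control and Kn ME and low in Ab ME, while none of their 9 measured flanking genes fell in Ab ME, Cyp6a17 and Cyp6a23 differ while the 6 other genes of their group stay low, and Cyp28a5 stands beside NimC1 and He, which rose as well.

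Subfamily 4ac, another trio of neighbours, held 2 rises in Ab ME and 1 in Kn ME, too few genes to set against the background shares. Cyp4ac1 measured 3.15, 4.87 and 1.10 on the Control arrays, 7.58, 7.06 and 7.92 on the Ab ME arrays and 6.88, 7.03 and 6.58 on the Kn ME arrays. The Control arrays were spread widely but all lay below the 6 others. Against Control it rose by 4.48 with Abrupt (SE 0.78, limma adjusted p = 0.00754) and by 3.79 with Knot (SE 0.78, adjusted p = 0.0309). Without Control replicate 2 these became 5.39 and 4.70, and without Control replicate 3 they were 3.51 and 2.82. Leaving out any one of the Ab ME or Kn ME arrays ended the Kn ME call (adjusted p = 0.0546 to 0.107). So did another quantile normalization (limma adjusted p = 0.0565) and a fit of only the 6 arrays compared (0.103).

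Cyp4ac2 was lower overall. It read 1.68, 1.21 and 1.64 on the Control arrays, 2.79, 2.63 and 2.76 on the Ab ME arrays and 2.10, 2.13 and 2.16 on the Kn ME arrays, with no overlap between groups. The Ab ME rise was 1.22 (SE 0.16, limma adjusted p = 0.00198), and the Kn ME difference of 0.62 did not pass (adjusted p = 0.0572), although it did without Control replicate 1 (0.71, adjusted p = 0.0411; 0.0385 to 0.17 over the alternatives). Cyp4ac3 did not pass in either group (0.45 and -0.12).

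Of the 22 genes of family 4, 2 rose and 2 fell in Ab ME (9.09% each, beside 11.2% and 5.96% of named genes), and 1 rose in Kn ME (4.55%, beside 4.18%). Cyp4g1, the oxidative decarbonylase that makes cuticular hydrocarbons in oenocytes, did not pass, with Control values of 4.06, 7.90 and 6.30. Its Ab ME values were 2.81, 3.83 and 3.31 and its Kn ME values 5.81, 6.90 and 6.07, so Ab ME did not overlap the other groups. The difference of -2.77 in Ab ME (SE 0.83) had an adjusted p of 0.0611, and without Control replicate 1 it was -3.78 with an adjusted p of 0.00367 (0.00367 to 0.17 over the alternatives, 4 of 16 of which passed). A fit with a term for replicate number was among those that passed (limma adjusted p = 0.0194). Kn ME minus Ab ME, at 2.94, likewise missed the threshold (adjusted p = 0.255) but passed without Control replicate 1 (adjusted p = 0.0493). Among the other oenocyte genes measured, the fatty acid synthase gene FASN2 fell in Ab ME (-1.11, adjusted p = 0.0484) and spidey rose (0.86, adjusted p = 0.00585).

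Cyp4e2 was high in every group, at 7.21, 7.08 and 4.97 on the Control arrays, 7.25, 6.61 and 7.26 on the Ab ME arrays and 7.31, 8.05 and 7.73 on the Kn ME arrays. Its differences of 0.62 and 1.27 did not pass (limma adjusted p = 0.478 and 0.248). Its neighbours Cyp4e1 and Cyp4ad1 averaged below the median of all values throughout. The 10 other genes of the CYP4 clan, whose symbols begin with Cyp311, Cyp312, Cyp313, Cyp316 or Cyp318, had no call in any of the 3 comparisons.

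Within the CYP3 clan of 37 genes, 7 rose and 2 fell in Ab ME (18.9% and 5.41%, beside 11.2% and 5.96% of named genes). In Kn ME 5 rose and 1 fell (13.5% and 2.70%, beside 4.18% and 2.32%). The smallest adjusted p of a P450 gene in Ab ME was that of Cyp6a13. It measured 2.39, 2.68 and 1.61 on the Control arrays, 6.99, 6.82 and 6.90 on the Ab ME arrays and 4.26, 4.26 and 4.43 on the Kn ME arrays. The 3 groups did not overlap, with Kn ME between the others. The rise was 4.68 in Ab ME (SE 0.25, limma adjusted p = 5.68e-05), or 25.6-fold, and 2.09 in Kn ME (SE 0.25, adjusted p = 0.00468), or 4.26-fold. Kn ME minus Ab ME was -2.59 (adjusted p = 0.00681). Its neighbour Cyp6a14 stayed between 0.65 and 1.32 on all arrays.

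The largest set of adjacent P450 genes, 8 genes of subfamily 6a, contained 2 genes that rose and 6 that stayed low. Cyp6a17, known for a role in temperature preference, measured 5.61, 4.69 and 5.04 on the Control arrays, 7.98, 8.23 and 8.33 on the Ab ME arrays and 7.17, 7.06 and 6.38 on the Kn ME arrays. The rise was 3.07 in Ab ME (SE 0.28, limma adjusted p = 0.000484) against 1.76 in Kn ME (adjusted p = 0.0133). With Kn ME replicate 1 or 2 left out, the Kn ME rise missed the threshold (adjusted p = 0.0521 and 0.0572). The same was true in a fit of only the 6 arrays compared (limma adjusted p = 0.0602).

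Cyp6a23, which lies next to Cyp6a17, was highest in Kn ME. It read 2.29, 2.30 and 2.26 on the Control arrays, 4.63, 5.07 and 5.18 on the Ab ME arrays and 6.37, 5.72 and 5.98 on the Kn ME arrays. The groups did not overlap. The rise reached 3.74 in Kn ME (SE 0.21, limma adjusted p = 0.000222), which is 13.4-fold, beside 2.68 in Ab ME (SE 0.21, adjusted p = 0.000237), which is 6.40-fold. The difference of Kn ME from Ab ME was 1.06 for Cyp6a23 (adjusted p = 0.0848) and -1.31 for Cyp6a17 (adjusted p = 0.118), so neither passed. These paralogues are close relatives, and the share of signal that either probe set takes from the other transcript was not tested.

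The other 6 genes of the group (Cyp6a22, Cyp6a19, Cyp6a9, Cyp6a20, Cyp6a21 and Cyp6a8) had group means from 0.49 to 1.73 and no call. Of the 9 measured genes that flank the 8, Ciao1 alone passed in Ab ME, with a rise of 0.95 (limma adjusted p = 0.0238). In all, 13 genes of subfamily 6a were measured. Of these, 3 rose and 1 fell in Ab ME (23.1% and 7.69%, beside 11.2% and 5.96% of named genes). The rises in Kn ME were also 3 (23.1%, beside 4.18%). Apart from the 3 rises, Cyp6a2, a drug-inducible enzyme that metabolises insecticides, fell by 1.39 in Ab ME (adjusted p = 0.0427). It read 2.05, 2.91 and 1.97 on the Control arrays, 0.75, 1.01 and 0.99 on the Ab ME arrays and 3.12, 2.06 and 1.74 on the Kn ME arrays. That call was lost in 8 of 16 alternatives, including without Control replicate 2 (-1.09, adjusted p = 0.102), without Kn ME replicate 2 (adjusted p = 0.0616) and without Ab ME replicate 1, 2 or 3 (adjusted p = 0.128, 0.103 and 0.108).

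Cyp28a5 lies within the Nimrod gene cluster, between NimC1, a phagocytosis receptor of blood cells, and NimC2. It measured 4.23, 5.47 and 4.81 on the Control arrays, 6.62, 7.48 and 7.76 on the Ab ME arrays and 6.37, 7.07 and 6.71 on the Kn ME arrays, and both misexpression groups lay above Control on all arrays. It rose by 2.45 in Ab ME (SE 0.38, limma adjusted p = 0.00485) and by 1.88 in Kn ME (adjusted p = 0.0302). Of the 5 genes on one side, NimB5 (3.59 and 2.78), the hemocyte surface gene He (2.13 and 1.90) and NimC1 (1.88 and 1.67) rose in both groups. NimB4 rose in Ab ME (2.61) and did not pass in Kn ME (2.20, adjusted p = 0.0932), and NimB3 passed in neither (2.51, adjusted p = 0.058, and 1.35, adjusted p = 0.363). On the other side NimC2 (-0.58 and -0.18) and NimC3 (0.09 and -0.08) did not pass. The Kn ME call of Cyp28a5 was lost without Control replicate 3 (adjusted p = 0.0606), Ab ME replicate 2 (0.0548) or Kn ME replicate 1 (0.065), 2 (0.111) or 3 (0.0831). Another quantile normalization (limma adjusted p = 0.0603) and a fit of only the 6 arrays compared (0.0633) also ended it. The 3 other genes of family 28 had no call.

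Cyp6d4 rose about equally in both groups. It read 3.76, 4.50 and 3.95 on the Control arrays, 6.28, 6.48 and 6.40 on the Ab ME arrays and 5.998, 6.451 and 5.959 on the Kn ME arrays. It rose 2.32 with Abrupt (SE 0.22, limma adjusted p = 0.000554), 2.07 with Knot (SE 0.22, adjusted p = 0.00293), and both passed under all 16 alternatives. Kn ME minus Ab ME was -0.25 (SE 0.22, adjusted p = 0.885). Of its 10 flanking genes, Gclm, a subunit of the enzyme that starts glutathione synthesis, rose as well (1.16 and 1.15, adjusted p = 0.024 and 0.0461), and wge rose in Ab ME (2.15).

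Cyp6w1 was higher in Ab ME than in both other groups. It read 1.43, 1.22 and 1.21 on the Control arrays, 2.61, 2.99 and 2.07 on the Ab ME arrays and 0.67, 1.25 and 1.13 on the Kn ME arrays. The rise over Control was 1.27 (SE 0.25, limma adjusted p = 0.0134), lost without Ab ME replicate 1 (adjusted p = 0.0507). Kn ME minus Ab ME was -1.54 (adjusted p = 0.0447). That difference passed in 6 of 16 alternatives, and in 1 of the 9 fits without an array, the one without Ab ME replicate 3. In the other 8 its adjusted p was 0.0542, 0.0575 and 0.0615 without Control replicates 1, 2 and 3, 0.158 and 0.153 without Ab ME replicates 1 and 2, and 0.133, 0.105 and 0.144 without Kn ME replicates 1, 2 and 3. Control and Kn ME means lie below the median of all values, so the sizes are uncertain.

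In family 9, 1 of 5 genes rose and 1 fell in Ab ME, too few genes to set against the background shares. Cyp9c1 measured 6.05, 6.16 and 6.10 on the Control arrays, 3.998, 3.175 and 3.361 on the Ab ME arrays and 4.67, 4.22 and 4.20 on the Kn ME arrays, with both misexpression groups below every Control array. It fell by 2.59 in Ab ME (SE 0.23, limma adjusted p = 0.00043) and fell by 1.74 with Knot (SE 0.23, adjusted p = 0.00624), and was the only P450 gene lower in Kn ME than in Control. Among 10 flanking genes the cuticle protein gene Cpr60D fell in the same 2 comparisons (-2.88 and -2.09), and CG3663 rose in Ab ME (1.69).

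Cyp9f2 read 5.32, 6.35 and 3.91 on the Control arrays, 7.559, 7.801 and 7.999 on the Ab ME arrays and 6.63, 7.04 and 6.96 on the Kn ME arrays. It rose by 2.59 in Ab ME (SE 0.51, limma adjusted p = 0.0133), and the Kn ME difference of 1.68 did not pass (adjusted p = 0.106). The Ab ME call was lost without Ab ME replicate 3 (adjusted p = 0.0527), and the rise was 1.96 without Control replicate 3. Without Control replicate 2 the Kn ME difference was 2.26 and passed (adjusted p = 0.0218; 0.0218 to 0.258 over the alternatives). Cyp308a1, Cyp309a1, Cyp309a2, Cyp310a1 and Cyp317a1 had no call, and only Cyp310a1 among them was above the median of all values, with means of 4.01 for Control, 4.82 for Ab ME and 4.29 for Kn ME.

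**Figure D4:**
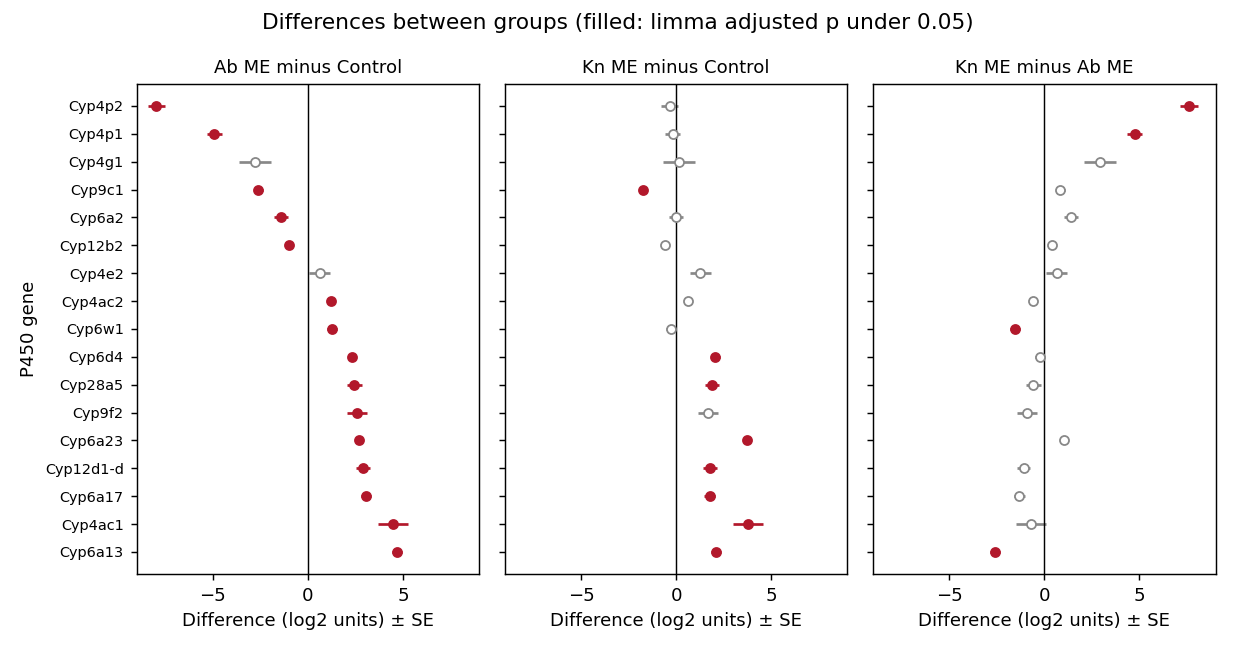
Log2 differences with SE from the limma fit for the same 17 genes in the 3 comparisons; filled points have an adjusted p under 0.05. Cyp4p2 and Cyp4p1 differ from Control in Ab ME (-7.96 and -4.92) and not in Kn ME, while Cyp6a23 differs in both (2.68 and 3.74).

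Among 8 genes of the mitochondrial clan, 1 rose and 1 fell in Ab ME (12.5% each, beside 11.2% and 5.96% of named genes). Cyp12d1-d, an insecticide-inducible gene that lies next to its near-identical copy Cyp12d1-p, measured 2.94, 3.40 and 2.36 on the Control arrays, 6.038, 5.349 and 5.995 on the Ab ME arrays and 5.27, 4.73 and 4.11 on the Kn ME arrays. It rose by 2.89 in Ab ME (SE 0.36, limma adjusted p = 0.00179) and by 1.80 in Kn ME (adjusted p = 0.0283). A probe set annotated to both copies gave 2.52 (adjusted p = 0.0334) and 1.44 (adjusted p = 0.252), so the copies cannot be told apart here. The Kn ME call was lost without Control replicate 3 (adjusted p = 0.0578), Ab ME replicate 3 (0.0506) or Kn ME replicate 1 (0.0905) or 2 (0.0985). Another quantile normalization (limma adjusted p = 0.0763) and a fit of only the 6 arrays compared (0.0839) also ended it.

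Cyp12b2 fell by 0.98 in Ab ME (SE 0.17, limma adjusted p = 0.0071). It read 1.95, 1.79 and 1.47 on the Control arrays, 0.83, 0.67 and 0.75 on the Ab ME arrays and 0.97, 1.10 and 1.35 on the Kn ME arrays, around and below the median of all values. Its Kn ME difference was -0.59 (adjusted p = 0.0886) and passed in 1 of 15 alternatives, without Control replicate 3 (-0.73, adjusted p = 0.0465; 0.0465 to 0.241 over the alternatives). Cyp12e1 did not pass with its brighter probe set (0.92, adjusted p = 0.0596, and 1.11, adjusted p = 0.0558). Its Ab ME difference passed in 5 of 16 alternatives, 1 of them without Kn ME replicate 2 (limma adjusted p = 0.0251, with 0.0251 to 0.294 over the alternatives). The Kn ME difference passed in 3 of 16 (0.0203 to 0.152). With the mean of its probe sets both passed, at 1.14 (limma adjusted p = 0.0294) and 1.51 (0.0203). Its other probe set differed by 1.35 in Ab ME (adjusted p = 0.0661) and passed at 1.91 in Kn ME (adjusted p = 0.0372). Cyp301a1, known for a role in cuticle formation, averaged below the median of all values in every group.

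In the CYP2 clan of 4 genes the ecdysteroid-inactivating enzyme Cyp18a1 alone was above the median of all values, and only in Control. It read 1.36, 3.11 and 4.50 on the Control arrays, 0.56, 0.94 and 0.91 on the Ab ME arrays and 1.12, 1.45 and 1.18 on the Kn ME arrays. The Control arrays ranged widely, and the differences of -2.19 (limma adjusted p = 0.0575) and -1.74 (adjusted p = 0.178) did not pass. Without Control replicate 1 both passed, at -3.00 (adjusted p = 0.00216) and -2.56 (adjusted p = 0.00796). The Ab ME difference also passed in a fit with a term for replicate number (limma adjusted p = 0.0456). Over the 16 alternatives the adjusted p ran from 0.00216 to 0.155 in Ab ME and from 0.00796 to 0.346 in Kn ME.

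Between Kn ME and Ab ME, 2 of the 81 genes were higher in Kn ME (Cyp4p1 and Cyp4p2) and 2 were lower (Cyp6a13 and Cyp6w1). These 2.47% and 2.47% of members stand beside 0.292% and 0.309% of all named genes. With 2 genes each way the shares are too small to compare. Cyp4p1 and Cyp4p2 are adjacent, and the Cyp6w1 difference passed in 6 of 16 alternatives. The 2 groups did not overlap in 22 of the 81 genes (27.2%, beside 21.4%). The median difference over the 81 genes was -0.02. No other P450 gene passed, the largest such difference being that of Cyp4g1.

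The P450 genes lie in gene order either alone or in 14 groups of neighbours, defined as members of 1 family with at most 3 other protein-coding genes between them. The 14 groups hold 41 genes, of which 39 were measured. At least 1 member was called in 6 of the groups, and in no group were all of at least 2 measured members called. Of the 39 measured neighbours 9 were called in some comparison (23.1%), and of the 42 genes that stand alone 6 were (14.3%), beside 17.7% of all named genes.

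Genes that supply or regulate P450 enzymes, and ecdysteroid P450 genes with other symbols, had 4 rises and 1 fall in Ab ME among 21 measured of 24 listed (19% and 4.76%, beside 11.2% and 5.96% of all named genes). The 3 without a probe set of their own were phm, dare and the P450 reductase gene Cpr, so nothing can be said of them. Fdx1, a ferredoxin that supplies mitochondrial P450 enzymes, rose by 1.67 (SE 0.28, limma adjusted p = 0.00675) from 3.05, 3.40 and 2.23 to 4.40, 4.63 and 4.64. The juvenile hormone receptor genes gce (1.65, adjusted p = 0.039) and Met (0.74, adjusted p = 0.0391) rose, as did maf-S, a partner of the xenobiotic response factor encoded by cnc (1.06, adjusted p = 0.0498). The fall was that of shd, the mitochondrial P450 that converts ecdysone to its active form (-1.09, adjusted p = 0.0434). The calls of gce, Met, maf-S and shd were each lost in at least 8 of 16 alternatives, several of them without 1 array, with adjusted p up to 0.128, 0.16, 0.155 and 0.13. That of Fdx1 was lost in 1, another quantile normalization (1.32, limma adjusted p = 0.0529). The electron carrier gene Cyt-b5 (0.17) and cnc (0.09) did not pass. In Kn ME 0 of 21 passed with limma, and 6 had an unadjusted p under 0.05. The Kn ME differences of shd (-1.11, limma adjusted p = 0.0695), maf-S (1.11, 0.0753) and Met (0.67, 0.0931) were close in size to those in Ab ME. Those of gce (1.17, limma adjusted p = 0.175) and Fdx1 (0.70, 0.218) were smaller. For Kn ME against Ab ME 0 passed, and 1 had an unadjusted p under 0.05. The ring gland P450 genes dib, sad and spok averaged below the median of all values in every group.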

How the data were processed

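The authors deposited 1 table of RMA values per probe set and array, which are log2 values: RMA is named in the submitters' processing notes, and base 2 from the span of the values. RMA corrects background, normalizes the probes and summarises them per probe set, which compresses differences of dim probe sets. Its version, the arrays normalized together and any later step are not given in the sources used here. No detection calls or scan data were used, so signal over background is unknown, and precision rests on 3 arrays a group. Array medians were 1.59 to 1.67 for Control, 1.44 to 1.47 for Ab ME and 1.50 to 1.53 for Kn ME. Arrays correlated at 0.93 to 0.944 within Control, 0.984 to 0.985 within Ab ME and 0.974 to 0.977 within Kn ME. Control replicate 1 correlated at 0.942 to 0.946 with the Kn ME arrays.

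After 183 control probe sets were left out, 18769 probe sets were tested. Symbols came from the platform annotation and were updated by gene identifier for 13544 of 13647 probe sets with 1 symbol. Gene order came from a RefSeq table (assembly Release 6 plus ISO1 MT). Sequences were not analysed here. Group means were fitted over the 9 arrays with limma 3.58.1 in R 4.3.3 (6 residual, 2.44 prior degrees of freedom), and 2-sided moderated tests were adjusted by Benjamini-Hochberg over all tested probe sets. The fit was tested on simulated data. P450 genes were named if past the threshold of 0.05 in any comparison or among the 6 brightest in Control, with their neighbours. The members, lists and alternatives were chosen with earlier results of these data known.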

Additional observations from a re-analysis of the deposited data

How the results depend on the processing

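Each result was recomputed under 16 alternatives, 9 of which left out 1 array. No called difference of a named gene changed sign. Of 32 called differences, 5 of companion genes included, 19 passed under every alternative and 13 were lost in at least 1. Leaving out 1 array gave 9 to 11 P450 genes higher and 4 to 7 lower in Ab ME, 3 to 8 higher and 1 to 2 lower in Kn ME, and 2 to 3 higher and 1 to 2 lower in Kn ME against Ab ME. Without Kn ME replicate 1 or 2 the rises in Kn ME were the 3 genes Cyp6a13, Cyp6a23 and Cyp6d4. With only the 6 arrays compared they were the same 3, and 1 gene was lower in Kn ME than in Ab ME. With the trend and robust prior 8 P450 genes were lower in Ab ME. With the replicate block 1 gene was lower in Kn ME than in Ab ME. Replicate numbers were not taken to pair the samples, since not every same-numbered correlation of deviations was over 0.1: they lay at 0.0343 to 0.0529 for replicate 2 and at 0.0727 to 0.272 for the others, beside -0.198 to 0.0872 for unlike numbers. In each pair of groups, samples numbered 1 and 3 correlated best with their own number, and samples numbered 2 not always. The labels state no pairing, and this rule does not settle whether there was any. Under the block Ab ME had 10 higher and 7 lower: Cyp4g1 (adjusted p = 0.0194), Cyp18a1 (0.0456) and Cyp49a1 passed there and Cyp6a2 (0.0566) did not, nor did Cyp6w1 between Kn ME and Ab ME (0.0626). The share of all calls that were higher in Ab ME was 62.4% as deposited, 49.8% after another quantile normalization and 76.2% after centring, and in Kn ME 63.1%, 48.4% and 72.4%. Centring moved the median of all probe sets in Ab ME from -0.06 to 0.11. All calls over the probe sets numbered 2622 in Ab ME (1400 to 3249 over the alternatives), 992 in Kn ME (337 to 1609) and 97 between them (26 to 241). Testing only probe sets above the median of all values kept 29 P450 genes and left Cyp12b2 untested. Signal over background limits what can be said of the 45 dim genes.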

Other observations

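Several P450 genes without a call were high on single arrays. Cyp4d14 read 4.44 on Control replicate 1 and 1.27 to 2.58 on the 8 others, and Cyp28d1 read 3.34 on that array and 0.60 to 2.21 elsewhere. Cyp6g1 read 2.73 on Control replicate 2 and 0.60 to 1.44 elsewhere, and Cyp4d8 read 3.34 on Kn ME replicate 2 and 1.13 to 1.87 elsewhere. Groups of 3 arrays were not tested for outlying values.

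The 2 cyclophilin genes that the symbols also cover did not pass in any comparison. Cyp1 measured 10.59, 10.38 and 10.17 on the Control arrays, 10.60, 10.58 and 10.37 on the Ab ME arrays and 10.35, 10.35 and 10.05 on the Kn ME arrays. Cyp40 differed by -0.68 in Ab ME (limma adjusted p = 0.115) and -0.33 in Kn ME (adjusted p = 0.519). A probe set annotated to both shn and Cyp6v1 differed by 0.11 and 0.56, and the second probe set of Cyp18a1 by -0.67 (adjusted p = 0.106) and -0.43 (adjusted p = 0.379), none of them past the threshold.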
